A study of Mus musculus with 12 samples.

Results

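Zymogen granules, the secretory granules of the pancreatic acinar cell, carry proteins that digest no protein. Transcripts of 7 genes grouped under this heading were followed in mouse pancreas after cerulein. The genes were Gp2, Zg16, Cuzd1, Sycn, Rnase1, Dmbt1 and Tmed6, chosen by name from the 8505 genes tested. All 7 are called granule genes below, although TMED6 belongs to a family that moves between endoplasmic reticulum and Golgi. The array held 10 probe sets that were annotated to exactly 1 of these symbols, among 45101 in all, and each gene was represented by the probe set with the highest mean over the 12 arrays. All 7 genes passed the filter on low values, a signal above log2 4 on at least 3 arrays.

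RNA came from whole pancreas of 8-week-old mice, 1 Affymetrix array per mouse. The 4 groups of 3 arrays were C57BL6/NHsd mice (Harlan, called NHsd) with cerulein-induced chronic pancreatitis, NHsd saline controls, C57BL6/J mice (Jackson, called J) with the same pancreatitis, and J saline controls. Both are inbred substrains of C57BL6; the labels name no further allele or transgene, give the controls as female and give no sex for the treated mice. Cerulein is a peptide that acts on the cholecystokinin receptor of acinar cells, and repeated injection inflames the rodent pancreas. Values are log2 probe set signals, so a difference of 1 is a doubling, and the highest value in the table was 16.4. The number of arrays limits the precision: the median standard error (SE) of a difference between 2 groups of 3 was 0.20. A gene was called where limma's Benjamini-Hochberg adjusted p over the 8505 genes was below 0.05, and "fell" is used only of called genes.

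Acinar cells pack digestive enzymes together with lectins, glycoproteins and a ribonuclease into granules at the trans-Golgi network and release them when cholecystokinin or its analogues raise calcium. GP2 is the main glycoprotein of the granule membrane, held there by a lipid anchor, and is shed into the juice. Syncollin (Sycn) sits on the luminal face of that membrane, ZG16 is a lectin of the granule matrix, CUZD1 combines CUB and zona pellucida domains, and DMBT1, in the mouse pancreas also known as muclin, is a mucin-like glycoprotein with scavenger receptor cysteine-rich domains. Rnase1 encodes the secreted pancreatic ribonuclease, and TMED6 belongs to the p24 family of proteins that move between endoplasmic reticulum and Golgi.

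Promoter windows of 5 of the 7 genes were found in the RefSeq promoter table (build GRCm38.p6), from 250 bases before to 50 bases after the gene start. The windows of Gp2 and Sycn, the genes with the largest falls described below, and of Cuzd1, which was not called, are printed to set them side by side. They lie at chr7:119459223-119459522 on the minus strand for Gp2, chr7:28540635-28540934 on the plus strand for Sycn and chr7:131322243-131322542 on the minus strand for Cuzd1. Each reads 5′ to 3′ along the gene, and capitals mark matches to the motifs searched.
Gp2: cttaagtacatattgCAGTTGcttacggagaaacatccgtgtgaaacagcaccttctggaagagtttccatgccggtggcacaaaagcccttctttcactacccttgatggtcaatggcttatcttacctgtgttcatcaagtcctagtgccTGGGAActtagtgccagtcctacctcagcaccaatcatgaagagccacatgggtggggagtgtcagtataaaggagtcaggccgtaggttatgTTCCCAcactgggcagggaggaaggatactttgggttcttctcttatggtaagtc
Sycn: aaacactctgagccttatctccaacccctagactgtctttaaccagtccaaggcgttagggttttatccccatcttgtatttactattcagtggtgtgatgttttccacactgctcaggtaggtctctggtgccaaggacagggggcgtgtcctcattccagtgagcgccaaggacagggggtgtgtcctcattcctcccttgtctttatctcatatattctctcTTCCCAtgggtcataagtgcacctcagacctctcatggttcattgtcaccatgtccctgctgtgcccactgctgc
Cuzd1: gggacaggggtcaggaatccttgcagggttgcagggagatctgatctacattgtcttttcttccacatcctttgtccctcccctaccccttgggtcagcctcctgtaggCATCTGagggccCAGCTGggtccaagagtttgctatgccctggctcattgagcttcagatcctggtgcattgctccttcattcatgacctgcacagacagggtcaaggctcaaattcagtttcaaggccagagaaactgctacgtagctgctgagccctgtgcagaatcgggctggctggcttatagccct
Motifs were searched on both strands: CANCTG, an E-box form bound by basic helix-loop-helix factors such as PTF1A; TTCCCA, the core read by RBPJ and RBPJL; AAGGTCA, the core read by NR5A2; and CATATG, an E-box form bound by BHLHA15. TTCCCA was present in 2 places in Gp2, at positions -98 (as TGGGAA) and -5, and in 1 place in Sycn, at position -25, counted from the gene start. Rnase1 held 1 match and Cuzd1 and Tmed6 held 0, against 25.6% of 32851 RefSeq promoter windows of this length with at least 1. CANCTG matched 1 place in Gp2, 2 in Cuzd1 and 3 in Tmed6, and 51.4% of all windows held it; the CAGCTG in Cuzd1 reads the same on both strands and was counted once. AAGGTCA and CATATG matched none of the 5 windows, against 4.72% and 3.91% of all windows. A match describes letters only.

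**Figure D1:**
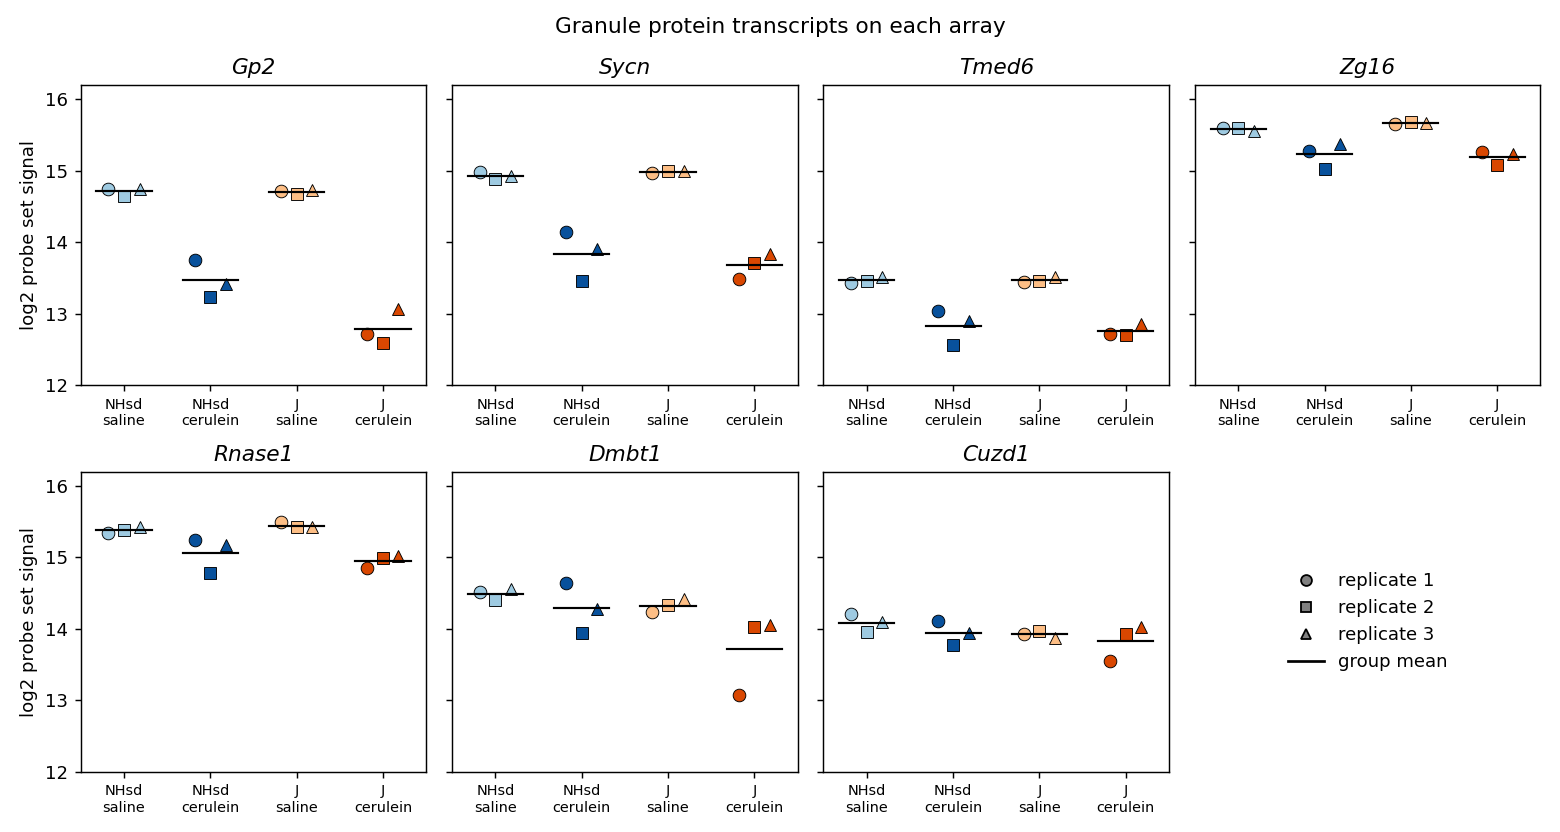
Log2 probe set signal (vertical axis) of the 7 genes on each of the 12 arrays, by group; symbols mark the replicate number, horizontal lines the group means. Gp2 and Sycn show the widest gap between saline and cerulein arrays, and the cerulein groups of Cuzd1 overlap their saline groups.

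Of the 7 transcripts, 6 fell after cerulein when both substrains were averaged (6 arrays against 6), none rose, and Cuzd1 did not pass the test. Among all tested genes 10.1% were called lower and 59.4% higher in this comparison. The median change was -0.42 log2 over the 7 genes and 0.49 over all 8505. When arrays were brought to equal medians of the tested genes, which moves the median change of all genes to -0.10, all 7 fell, where 36.1% of all genes were called lower. Under quantile normalization 5 fell, against 34.2% of all genes, and with equal digestive enzyme medians 5 did, against 5.36%. On 5 of the 7 genes the cerulein and saline arrays did not overlap, which held for 4.94% of all genes in this direction. In these bulk samples fewer acinar cells and less RNA per acinar cell cannot be told apart.

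Gp2 had the largest fall of the 7 genes. On NHsd saline arrays it read log2 14.75, 14.64 and 14.75, and on J saline arrays 14.71, 14.67 and 14.73. After cerulein it read 13.75, 13.23 and 13.41 in NHsd and 12.71, 12.59 and 13.06 in J. Every cerulein array lay below every saline array, and every J cerulein array below every NHsd cerulein array. Gp2 was 2.99-fold lower as the mean of both substrains (change -1.58, SE 0.10, limma adjusted p = 7.5e-08), and 0.67% of all tested genes had a change as low or lower. Its rank among the probe sets of its array, counted from the brightest, ran from 36 to 39 on saline arrays and from 87 to 227 on cerulein arrays.

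Sycn, the syncollin gene, followed. It read log2 14.98, 14.89 and 14.92 on NHsd saline arrays and 14.97, 14.99 and 14.99 on J saline arrays. After cerulein it read 14.14, 13.46 and 13.90 in NHsd and 13.49, 13.71 and 13.84 in J. The saline arrays lay close together, the NHsd cerulein arrays were spread more widely, and the treatments did not overlap. Sycn was 2.29-fold lower (change -1.20, SE 0.10, limma adjusted p = 7.55e-07). Its other probe set changed by -1.15 (SE 0.10), so both probe sets gave nearly the same size. Its rank ran from 31 to 35 after saline and from 55 to 136 after cerulein.

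Zg16, for the granule lectin, was among the brightest probe sets of every array, with ranks of 9 to 11 after saline and 12 to 19 after cerulein. Its signal was log2 15.60, 15.60 and 15.56 on NHsd saline and 15.66, 15.68 and 15.67 on J saline arrays. After cerulein it was 15.28, 15.03 and 15.37 in NHsd and 15.26, 15.08 and 15.23 in J. The groups did not overlap by treatment, and the change was -0.42 (SE 0.06, limma adjusted p = 7.9e-05), or 1.34-fold lower. The probe set used is of the x_at kind, which can bind related transcripts, and the 2 dimmer probe sets of Zg16 changed by -0.58 (SE 0.07) and -0.47 (SE 0.06). The 3 probe sets differed in size, the brightest giving the smallest fall; whether signals this close to the top of the scale are compressed was not tested.

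Rnase1 read log2 15.34, 15.38 and 15.43 on NHsd saline arrays and 15.49, 15.43 and 15.42 on J saline arrays. After cerulein it read 15.25, 14.78 and 15.17 in NHsd and 14.85, 14.99 and 15.02 in J. All cerulein values lay below all saline values, by a small margin for NHsd replicate 1. The ribonuclease transcript fell 1.32-fold (change -0.41, SE 0.08, limma adjusted p = 0.000457). Its rank ran from 14 to 19 after saline and from 17 to 24 after cerulein, so by rank the treatments overlapped.

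Tmed6, for the p24 family protein, fell as well. It read log2 13.43, 13.45 and 13.51 on NHsd saline arrays and 13.44, 13.45 and 13.51 on J saline arrays, nearly the same in both substrains. After cerulein it read 13.03, 12.56 and 12.90 in NHsd and 12.71, 12.70 and 12.86 in J. The treatments did not overlap, and Tmed6 was 1.59-fold lower (change -0.67, SE 0.08, limma adjusted p = 1.45e-05). Its rank moved from 92 to 110 after saline to 175 to 219 after cerulein.

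Dmbt1, the muclin gene, had the largest standard deviation of the 7 genes within each cerulein group, 0.35 in NHsd and 0.56 in J. It read log2 14.51, 14.41 and 14.56 on NHsd saline arrays and 14.23, 14.33 and 14.42 on J saline arrays. After cerulein it read 14.64, 13.94 and 14.28 in NHsd and 13.07, 14.03 and 14.06 in J. NHsd cerulein replicate 1 lay above every saline array and J cerulein replicate 1 below every other array, so the treatments overlapped. The change was -0.41 (SE 0.16, limma adjusted p = 0.0415), and the call ended when any of 9 of the 12 arrays was left out, namely all 6 saline arrays, NHsd cerulein replicates 2 and 3 and J cerulein replicate 1. Without J cerulein replicate 1 the change was -0.24 (adjusted p = 0.0607); over all alternatives adjusted p ran from 9.51e-05 to 0.129.

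Cuzd1 was not called. It read log2 14.21, 13.96 and 14.09 on NHsd saline arrays and 13.93, 13.97 and 13.87 on J saline arrays. After cerulein it read 14.11, 13.78 and 13.94 in NHsd and 13.55, 13.93 and 14.03 in J. The groups overlapped, and the change was -0.12 (SE 0.09, 95% confidence interval -0.31 to 0.08, limma adjusted p = 0.273). With equal medians of all tested genes Cuzd1 fell by 0.70 (SE 0.08; adjusted p = 1.19e-05, and 1.19e-05 to 0.609 over all alternatives). In RefSeq, Cuzd1 lies on the same chromosome as Dmbt1 with 2 protein-coding genes between them, and 5 of the 7 genes lie on chromosome 7.

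**Figure D2:**
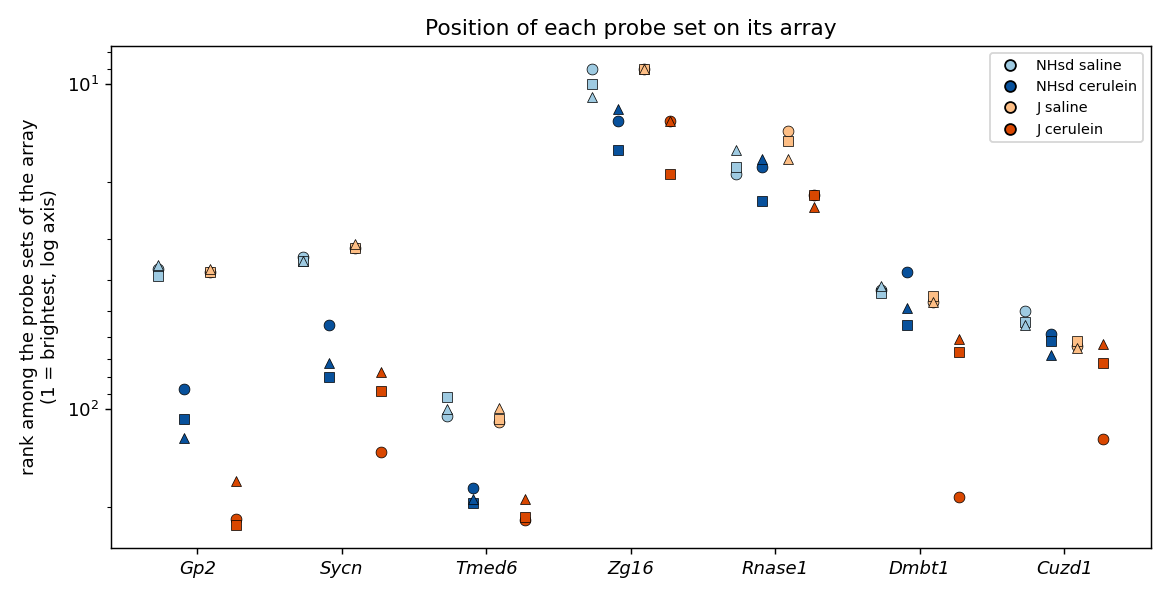
Rank of each gene's probe set among all probe sets of its array (vertical log axis, 1 is the brightest), coloured by group, with circles, squares and triangles for replicates 1, 2 and 3. Gp2 moved from ranks of 36 to 39 on saline arrays to 87 to 227 on cerulein arrays; ranks order probe set brightness, not amounts of transcript.

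The granule genes were also set against the digestive enzymes that share the granule. Averaged over both substrains, 14 of 17 tested enzyme genes were called lower and 1 higher, and their median change was -0.33. Of all tested genes 10.1% were called lower and 59.4% higher. With equal medians 16 enzyme genes were lower and 0 higher, against 36.1% and 26.6% of all genes. Under quantile normalization 6 (35.3%) were lower and 2 (11.8%) higher, against 34.2% and 28% of all genes. The share lower was thus near that of all genes there, and the enzyme median change was -0.09. The phospholipase A2 gene Pla2g1b fell most (-2.15, SE 0.12) and the trypsinogen gene Prss3 rose (0.78, SE 0.19), though not with equal medians. For a comparison within arrays, the median of the 17 enzyme genes was made equal on all arrays and the test over all genes repeated. On that scale Gp2 changed by -1.37 (SE 0.09, adjusted p = 6.88e-09), Sycn by -0.98 (SE 0.07, adjusted p = 1.84e-08) and Tmed6 by -0.46 (SE 0.09, adjusted p = 0.000196). Zg16 and Rnase1 changed by -0.21 (SE 0.09, adjusted p = 0.0454) and -0.19 (SE 0.07, adjusted p = 0.0188). Cuzd1, at 0.10 (SE 0.07, adjusted p = 0.246), and Dmbt1, at -0.19 (SE 0.10, adjusted p = 0.095), did not pass. Over all alternatives, adjusted p ran from 3.08e-09 to 9.93e-06 for Gp2, 6.27e-09 to 5.76e-05 for Sycn, 4.89e-08 to 0.000196 for Tmed6, 5.43e-08 to 0.0454 for Zg16 and 9.24e-08 to 0.0188 for Rnase1. On the enzyme scale 8 of the 17 enzyme genes were themselves called lower and 2 higher, against 5.36% and 69.8% of all genes. The median change of the enzyme genes there was -0.12, and the lowest was -1.94, below that of Gp2. All 5 of these granule genes lay below the enzyme median of -0.12, Zg16 and Rnase1 by less than 1 SE or close to it. The adjusted p-values test a change from 0, and a difference from the enzyme genes was not tested. The enzyme median of single arrays as deposited ran from 15.23 to 15.29 after saline and from 14.74 to 15.26 after cerulein.

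**Figure D3:**
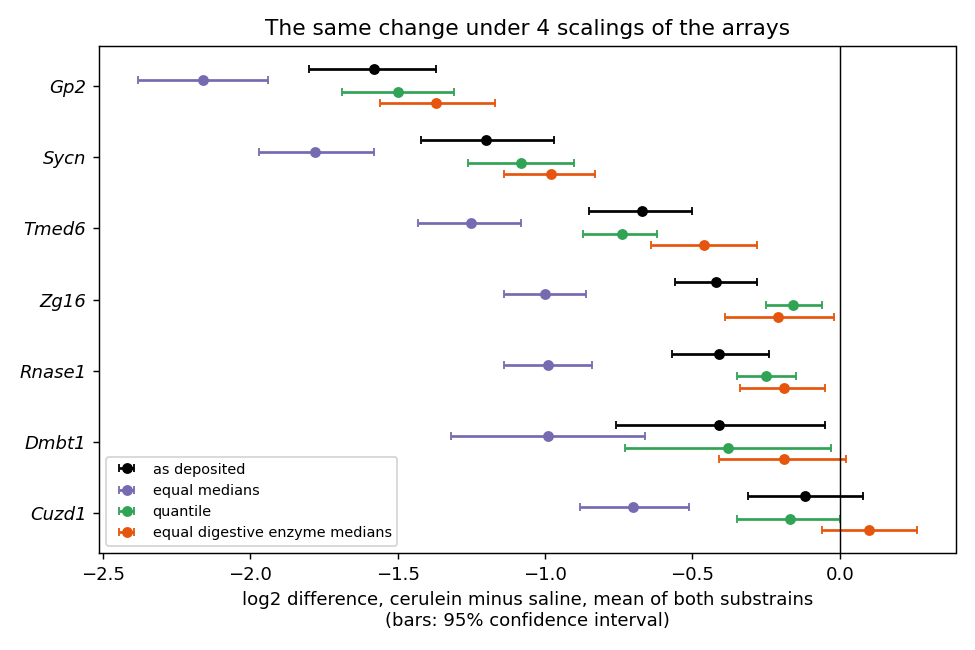
Cerulein minus saline change of each gene as the mean of both substrains (horizontal axis, log2; bars are 95% confidence intervals) with arrays as deposited, shifted to equal medians of all tested genes, quantile normalized, or shifted to equal medians of the digestive enzyme genes. Gp2, Sycn, Tmed6, Zg16 and Rnase1 were called lower on every scale. Dmbt1 lay below 0 on every scale but was not called under quantile normalization or on the enzyme scale. The sign of Cuzd1 turned on the enzyme scale, where it was not called.

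In NHsd alone (3 arrays against 3), 5 of the 7 genes fell and none rose, where 6.6% of all genes were called lower and 48.7% higher. Gp2 was 2.38-fold lower (-1.25, SE 0.14, limma adjusted p = 2.15e-05), Sycn 2.13-fold (-1.09, SE 0.14, adjusted p = 6.89e-05) and Tmed6 1.56-fold (-0.64, SE 0.12, adjusted p = 0.000628). Zg16 changed by -0.35 (SE 0.09) and Rnase1 by -0.31 (SE 0.11, adjusted p = 0.0258). All 7 genes fell with equal medians of the tested genes (28.8% of all genes called lower), 4 under quantile normalization (26.5%), where Zg16 stood at -0.10 (adjusted p = 0.177), and 3 with equal enzyme medians (3.53%), where neither Zg16 nor Rnase1 was called. Rnase1 was not called without NHsd saline replicate 2 (adjusted p = 0.0599) or replicate 3 (0.0786; 1.6e-05 to 0.272 over all alternatives). Without NHsd cerulein replicate 2, the change of Rnase1 was -0.17 and it was still called. Dmbt1 (-0.21, SE 0.23) and Cuzd1 (-0.14, SE 0.13) did not pass as deposited, their intervals running from -0.71 to 0.29 and from -0.42 to 0.14, but with equal medians they fell by 0.79 (adjusted p = 0.00877) and 0.73 (adjusted p = 0.000336). The arrays of 5 genes did not overlap, against 9.48% of all genes in this direction.

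In J alone 6 of the 7 genes fell and none rose, where 7.61% of all genes were called lower and 47.8% higher. Gp2 was 3.77-fold lower (-1.91, SE 0.14, limma adjusted p = 8.6e-07), Sycn 2.46-fold (-1.30, SE 0.14, adjusted p = 1.64e-05) and Tmed6 1.63-fold (-0.71, SE 0.12, adjusted p = 0.000302). Rnase1 changed by -0.50 (SE 0.11) and Zg16 by -0.48 (SE 0.09). With equal enzyme medians 5 genes fell, against 3.77% of all genes, and Zg16, at -0.25 (adjusted p = 0.0954), was not called. Dmbt1 was called at -0.61 (SE 0.23, adjusted p = 0.0415), but without J cerulein replicate 1 it stood at -0.28 (adjusted p = 0.157), and its call was also lost without any of the 6 saline arrays or NHsd cerulein replicate 3 (0.000687 to 0.157 over all alternatives). Cuzd1 did not pass as deposited (-0.09, SE 0.13, interval -0.37 to 0.19), and with equal medians it fell by 0.66 (adjusted p = 0.000607), so that all 7 fell there, against 29.4% of all genes. On 6 genes the J arrays of the treatments did not overlap, against 9.51% of all genes in this direction.

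**Figure D4:**
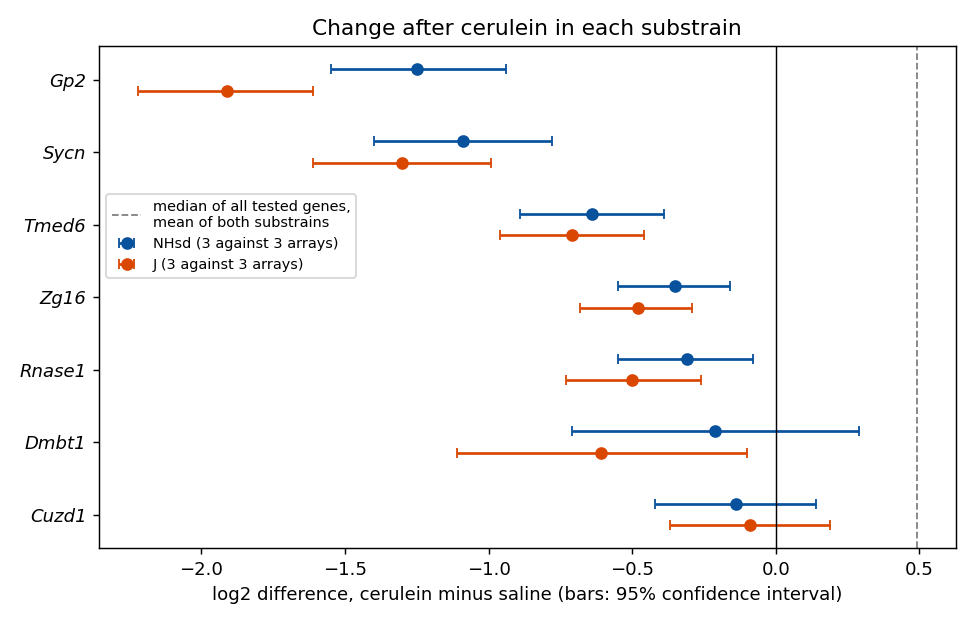
Cerulein minus saline change of each gene in NHsd and in J (horizontal axis, log2; bars are 95% confidence intervals; 3 against 3 arrays each), with the median change of all tested genes, 0.49, as a dashed line. The fall of Gp2 was -1.25 in NHsd and -1.91 in J, and the intervals of Dmbt1 were the widest.

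The substrains were then compared with each other. The cerulein effect of Gp2 was lower in J than in NHsd by -0.67 (SE 0.20, interval -1.09 to -0.24), which did not pass the test over all genes (limma adjusted p = 0.702). None of the 7 genes was called for this difference, where 0.0118% of all genes were called higher and 0% lower. Gp2 alone of the 7 had an unadjusted limma p under 0.05. The share of all genes under that unadjusted limit was not counted, and the called shares cannot stand in for it. For the other six, the interval ran from -0.43 to 0.28 for Tmed6, from -0.65 to 0.23 for Sycn and from -1.11 to 0.31 for Dmbt1. Those of Zg16, Rnase1 and Cuzd1 ran from -0.40 to 0.14, from -0.51 to 0.15 and from -0.34 to 0.45.

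On saline arrays the J minus NHsd differences of the 7 genes ran from -0.17 (Dmbt1) to 0.09 log2 (Zg16), and limma called none of them, with 0 at an unadjusted p under 0.05. Of all genes 0.0118% were called higher and 0.047% lower in J. Gp2 differed by -0.01 (SE 0.14) and Tmed6 by 0.00 (SE 0.12), while Zg16 was 0.09 higher in J (SE 0.09) with arrays that did not overlap, as held for 8.41% of all genes in this direction. The SEs and p-values of the substrain comparisons rest on a spread shared by all 4 groups. In NHsd and J the standard deviations of Zg16 were 0.02 and 0.01 after saline and 0.18 and 0.09 after cerulein. Its SE on saline arrays therefore also carries the wider spread after cerulein. After cerulein limma again called none of the 7, against 0.165% of all genes called higher and 0.0588% lower in J. Gp2 (-0.68, SE 0.14, adjusted p = 0.0996) and Dmbt1 (-0.57, SE 0.23, adjusted p = 0.466) had unadjusted p-values under 0.05. The share of all genes under that unadjusted limit was not counted. Both SEs rest on the shared spread. In NHsd and J the standard deviations after cerulein were 0.27 and 0.25 for Gp2 and 0.35 and 0.56 for Dmbt1. After saline they were 0.06 and 0.03, and 0.07 and 0.1, so the SEs understate the spread after cerulein. The 3 J arrays of Gp2 lay below the 3 NHsd arrays, as did those of 4.39% of all genes. Gp2 was called lower in J with quantile normalization (-0.83, adjusted p = 0.0101) and without J cerulein replicate 3 (-0.81, adjusted p = 0.0345), and its adjusted p ran from 0.0101 to 0.659 over all alternatives.

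The 6 cerulein arrays ranked the genes alike at the low end. Set against the saline mean of its substrain, Gp2 was the lowest of the 7 genes on every cerulein array, from -0.96 on NHsd replicate 1 to -2.11 on J replicate 2. Sycn lay between -0.79 and -1.49 and Tmed6 between -0.43 and -0.91. Zg16 lay between -0.21 and -0.59 and Rnase1 between -0.13 and -0.60. At the high end Cuzd1 was the least lowered on 5 arrays and Dmbt1 on NHsd replicate 1, where it stood at 0.15. On J replicate 1 Dmbt1, at -1.26, lay below Tmed6, at -0.75, which it did on no other cerulein array.

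**Figure D5:**
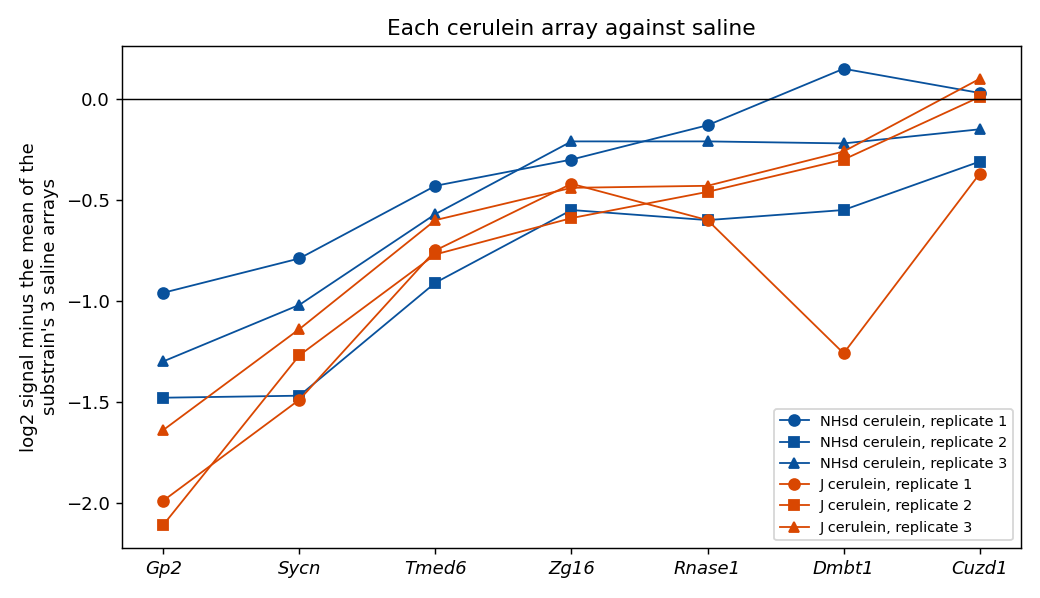
Log2 signal of each gene on each cerulein array minus the mean of the substrain's 3 saline arrays (vertical axis); lines join the 7 genes of 1 array, blue for NHsd and orange for J. Gp2 is lowest on all 6 arrays, and J replicate 1 departs from the others at Dmbt1 (-1.26).

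Arrays of the cerulein groups spread more than those of the saline groups. Standard deviations over the 7 genes ran from 0.02 to 0.12 in NHsd saline and 0.01 to 0.10 in J saline, and from 0.17 to 0.35 in NHsd cerulein and 0.09 to 0.56 in J cerulein. NHsd cerulein replicate 2 was the lowest of its group in all 7 genes, and replicate 1 the highest in 6. The digestive enzyme median of these arrays was 14.85 on replicate 2, 15.26 on replicate 1 and 15.16 on replicate 3. In J, replicate 3 was the highest in 6 of the 7 genes, with an enzyme median of 15.20, and replicate 1 the lowest in 4, with 14.74. Relative to the enzyme median, the standard deviation of Sycn in NHsd cerulein was 0.14 in place of 0.34 and that of Tmed6 0.04 in place of 0.25. In J cerulein the same step took Cuzd1 from 0.25 to 0.01, Dmbt1 from 0.56 to 0.32 and Sycn from 0.18 to 0.09, whereas 4 of the 7 genes spread more. Zg16 went from 0.09 to 0.31, Tmed6 from 0.09 to 0.22, Rnase1 from 0.09 to 0.16 and Gp2 from 0.25 to 0.28.

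Across the 12 arrays some other genes followed nearly the same course. Likeness was measured as the root mean square difference of log2 values after each gene was centred on its own mean, a description without a test that largely follows the treatment. Closest to Gp2 were Slc38a5, an amino acid transporter, and Hgfac, a serine protease that activates hepatocyte growth factor, both at 0.16. Closest to Sycn were the mucin gene Muc1 (0.10) and the Golgi mannosidase gene Man1a (0.13). Rnase1 was closest to the chymotrypsinogen gene Ctrb1 (0.06) and the elastase gene Cela2a (0.07), and Zg16 to the mitochondrial carrier gene Slc25a39 (0.08) and Cela2a (0.09). Cuzd1 was closest to Ttll12 and to P4hb, which encodes protein disulfide isomerase, both at 0.09. Tmed6 was closest to Parp16 and Abhd14b (0.09 each), and Dmbt1 to Nucb2 (0.12) and Elapor1 (0.14). Among the 7 genes, Zg16 and Rnase1 were the closest pair at 0.09 and Gp2 and Cuzd1 the farthest at 0.77.

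Further lists cover the rest of the secretory route and the acinar regulators, to be read against 59.4% of all tested genes called higher and 10.1% lower as deposited, and 26.6% and 36.1% with equal medians. Averaged over both substrains, cerulein raised 6 and lowered 1 of 8 tested p24 genes other than Tmed6, with a median change of 0.92; equal medians gave 4 higher and 2 lower, quantile normalization 5 and 2, and equal enzyme medians 7 and 1. Tmed11 fell by 2.72 log2 (SE 0.28), from a mean of 11.18 to 8.46, and Tmed5 rose by 2.31 (SE 0.32); both were called in the same direction on each of the 4 scales. Among 23 genes of the granule membrane and exocytosis 13 were called higher and 3 lower, but 4 and 9 under equal medians or quantile normalization. Rab3d, a GTPase of mature granules, changed by -0.75 (SE 0.11), and the coatomer gene Copb1 by 1.44 (SE 0.16). Among 18 genes of granule maturation and condensation 9 were called higher and 1 lower, but 3 and 7 under equal medians, with the proteoglycan core gene Srgn 1.52 higher (SE 0.18) and the convertase gene Furin lower at -0.75 (SE 0.12). Among 14 acinar transcription factors 7 were called higher and 2 lower, but 2 and 7 under equal medians, Rbpj rising by 1.49 (SE 0.16) and Xbp1 changing by -0.57 (SE 0.11). Ptf1a, named after its values were seen, did not pass as deposited, at -0.24 (adjusted p = 0.275). Its result on the other scales is not reported here. The median changes of the exocytosis, maturation and transcription factor lists, 0.34, 0.44 and 0.26 as deposited, became -0.25, -0.14 and -0.32 under equal medians. The direction of these 3 lists therefore depends on the scale, and whether any list differed from the granule genes was not tested.

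Signals of other cell types and of control probe sets moved with the treatment as well. Of all tested genes, 59.4% were called higher as deposited and 26.6% with equal medians. All 12 tested macrophage markers rose, Ms4a7 the most (4.82, SE 0.17); their mean log2 level ran from 4.40 to 4.91 on saline and from 7.70 to 8.39 on cerulein arrays. In saline, 6 of the 12 in NHsd and 5 in J stayed under log2 4 on all arrays. All 11 tested stellate and fibroblast markers rose (10 with equal medians), the matrix protein gene Postn the most (5.33, SE 0.31), their mean level going from 5.60 to 6.31 on saline to 7.83 to 9.30 on cerulein arrays, the lowest in the J cerulein group. Ms4a7 and Postn averaged log2 2.91 and 3.25 on saline arrays, under the filter level of 4, so the sizes of their rises are inexact. All 8 tested islet markers rose as deposited and 4 did with equal medians, with the transthyretin gene Ttr rising most (1.56, SE 0.16); their mean level ran from 8.21 to 8.69 on saline and from 8.81 to 9.71 on cerulein arrays. The mean of the 17 digestive enzyme genes, which define acinar cells, ran from 14.81 to 14.91 on saline and from 14.14 to 14.51 on cerulein arrays, so the acinar transcripts were bright on all 12 arrays. The spike-in controls for hybridization, which do not come from the mouse, averaged log2 8.81 to 10.01 on saline and 7.36 to 7.74 on cerulein arrays. The poly-A controls, added to the RNA before labelling, averaged 9.81 to 10.96 on saline and 7.13 to 8.67 on cerulein arrays. The part of other cell types and of array handling in the falls of the granule genes was not tested.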

How the data were processed

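The deposited table holds log2 probe set signals that the authors made with GCRMA and Partek, per the submitters' processing notes, which give no version or further step; values were used as deposited, between 2.39 and 16.4. Probe sets were named by the platform annotation, and 34958 of 45101 carried 1 gene symbol. Those above log2 4 on at least 3 arrays were kept, 1 per gene with the highest mean, which left 8505 genes. With limma 3.58.1 in R 4.3.3, all 12 arrays entered one model of 4 group means with an intensity trend, tested two-sided. The 4 groups shared 1 estimate of the spread per gene. The fit was tested on simulated data. The labels call replicates biological. Members and lists were chosen with earlier results of these data known. All 7 members are named, with the largest called rise and fall of each other list and the 2 genes most like each member. Alternatives covered scaling, filter, moderation, probe sets, arrays and a replicate term; array weights and the dimmest probe set were added after seeing the data. Promoters came from RefSeq. Figures used Python 3.11.15 and matplotlib 3.10.9.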

Additional observations from a re-analysis of the deposited data

How the results depend on the processing

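Gp2, Sycn and Tmed6 were called lower in all 3 cerulein comparisons under every alternative run. No alternative scaled the arrays to the spike-in controls, which were themselves lower on cerulein arrays. Hybridization controls averaged log2 7.36 to 7.74 there against 8.81 to 10.01 on saline arrays, and poly-A controls 7.13 to 8.67 against 9.81 to 10.96. How the calls would stand on such a scale was not tested. The count of genes that fell in NHsd was 3 with equal digestive enzyme medians, against 5 as reported, and 4 to 5 without single arrays. In J and as the mean of both substrains it was 5 to 6 without single arrays. The count lower in J than in NHsd after cerulein was 1 (Gp2) with quantile normalization, and 0 to 1 without single arrays; without J cerulein replicate 3 it was 1. The causes were not tested. The labels link same-numbered samples of different groups by number only. Over all 18 pairs the correlation of deviations ran from -0.162 to 0.341, and 6 were above 0.1. The highest was between NHsd saline and NHsd cerulein replicate 2. In 13 of 36 choices, each among the 3 arrays of another group, an array was closest to its own number. That count is close to what random choice among 3 arrays would give. Whether same-numbered samples were handled together cannot be told from these values. With the replicate block 5 genes fell in each cerulein comparison, the call of Dmbt1 being lost (adjusted p = 0.0525 as the mean of both substrains and 0.0528 in J). Of 964 single-gene values under alternatives, 36 lost and 6 gained a call, and none that was called on either side changed sign. The 7 genes read log2 12.56 or more on every array, over the filter level of 4; the 3 arrays per group limit all differences.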

Other observations

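Relatives of the granule proteins by domain were measured in smaller numbers. Of all tested genes, 59.4% were called higher and 10.1% lower as deposited. Of 3 tested zona pellucida domain genes outside the 7, Umod and Tgfbr3 were called higher and Eng lower after cerulein as the mean of both substrains; Tgfbr3, a co-receptor for TGF-beta, rose by 1.73 (SE 0.25), and Eng changed by -0.32 (SE 0.13). With equal medians 1 of the 3 was called higher, and with equal digestive enzyme medians Eng was not called. Of 4 tested genes with scavenger receptor cysteine-rich domains besides Dmbt1, 3 rose on each of the 4 scales and Cd5l did not pass the test as deposited, with the scavenger receptor gene Scara5 2.44 higher (SE 0.17). Loxl1, which lacks these domains, was taken off that list after its values were seen. Of the RNase A family, Rnase4 rose by 1.08 (SE 0.18), its mean being log2 10.17 after saline and 11.25 after cerulein, and Ang did not pass except as lower under equal medians and quantile normalization; in the same arrays Rnase1 fell.

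Gp2 and Zg16 are also known from intestinal M cells and goblet cells. The counts below are to be read against 59.4% of all tested genes called higher and 10.1% lower as deposited. With equal medians these shares were 26.6% and 36.1%. Of 6 tested markers of these cells 5 were called higher and 1 lower after cerulein as the mean of both substrains, with Agr2, a disulfide isomerase of mucus-secreting cells, 2.63 higher (SE 0.23) and the goblet cell factor Spdef at -0.45 (SE 0.12). With equal medians 4 were higher and 1 lower, and with equal digestive enzyme medians Spdef was not called. Another 6, among them Muc2, Spib and Clca1, named after their values were seen, did not pass the filter on low values. Of 8 tested duct markers 6 were called higher and 1 lower, as deposited and with equal medians. Muc1 fell by 1.11 (SE 0.12), whereas Cldn4 rose by 3.14 (SE 0.29). The mean of Cldn4 in saline arrays, log2 2.61, was under the filter level, so that the size is inexact.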
